A study of Homo sapiens with 4 samples.

Results

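The genes described here are the zinc finger transcription factor genes whose symbols begin with ZBTB, ZSCAN or ZKSCAN. The rule went by symbol and was set with earlier results of these data known. It took protein-coding genes of the deposited table named ZBTB, ZSCAN or ZKSCAN with a number and at most 1 further letter. It left out 1 gene, ZBTB17. The rule found 59 of the 25122 genes in the table, of which 15429 are protein coding: 37 ZBTB, 15 ZSCAN and 7 ZKSCAN genes. RNA was measured by mRNA sequencing in Jurkat, a human leukaemia cell line of the T lineage (T-ALL, T-cell acute lymphoblastic leukaemia). Of the 4 libraries, 2 came from cells carrying a short hairpin RNA against BDH1, which encodes a mitochondrial enzyme of ketone body metabolism (shBDH1), and 2 from cells carrying a control hairpin (shcontrol). All 4 share the same line, described in the labels as wild type; the number of hairpin sequences is not given in the labels. The study placed MYC downstream of BDH1, and cells in which MYC was restored were not analysed here.

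ZBTB proteins join a BTB domain, which pairs 2 protein copies and recruits corepressors such as NCOR1 and BCOR or the ubiquitin ligase scaffold CUL3, to zinc fingers that read DNA. ZSCAN proteins carry a SCAN domain instead, through which they pair with one another, and many ZKSCAN proteins add a KRAB domain, which brings in TRIM28 and the histone methyltransferase SETDB1. In T cells the family is best known for ZBTB7B (ThPOK), which sets the CD4 lineage, and ZBTB16 (PLZF), which sets innate-like T cells.

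The deposited value of a gene is its read count divided by a size factor of its library, called scaled reads below. The libraries held between 28681511 and 29453383 reads in genes. Differences were tested with limma on log2(value + 1), so fold changes are on that scale; rose and fell mean an adjusted p (Benjamini-Hochberg over all 19301 genes with a mean of at least 10) under 0.05. BDH1 itself had 1221 and 1412 scaled reads in the shBDH1 libraries, against 1725 and 1911 in the shcontrol libraries, a log2 fold change of -0.47 ± 0.0779 (SE). The labels do not say whether replicate libraries came from separate cultures. A p-value here reflects the spread between libraries only, and that spread may be technical. For each gene, limma pooled a variance with 2 residual degrees of freedom with a prior worth 25.8, drawn from genes of similar level. Each SE and limma p therefore rests mostly on the spread of other genes, not on that of the gene itself. In such bulk samples fewer cells of a type and less RNA per cell cannot be told apart. T cell genes marked the line as labelled, with 6 of 10 T-ALL markers higher and 1 lower in shBDH1; their sum was 48963 and 49105 in shBDH1 libraries and 39973 and 40052 in shcontrol libraries. Of 18 markers of other cell types, 11 were in the table and 7 were tested; 4 of these rose (CD79A, NKG7, COL1A1 and NCAM1) and none fell, by limma, by edgeR or at an unadjusted p under 0.05. Their sum was 1540.2 and 1436 scaled reads in shBDH1 libraries and 749 and 761 in shcontrol libraries, and of the myeloid markers LYZ and CD14 stayed at 6.13 or less in every library, while CSF1R had 64.9 and 41.2 in shBDH1 and 48.3 and 46 in shcontrol libraries and did not pass. The part of these markers in the results below was not tested.

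Of the 59 genes, 55 passed the filter on low values; 13 rose (23.6%), 12 fell (21.8%) and 30 did not pass. Over all genes tested 20.3% rose and 20.8% fell, and over the protein-coding genes 24.2% rose and 24.7% fell, so the family's shares were near the background. The median log2 fold change of the 55 genes was -0.04, against -0.01 over all genes. Values did not overlap between the groups for 41 of the 55 genes, 21 of them higher and 20 lower in shBDH1; over all genes tested, 34.1% were higher and 34.9% lower without overlap. The 59 genes together took 0.204% and 0.201% of all scaled reads in shBDH1 libraries and 0.204% and 0.201% in shcontrol libraries. Changes were mostly small: 1 gene, ZBTB16, differed by at least 2-fold.

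All 13 genes that rose were ZBTB genes. Among the 36 ZBTB genes tested, 13 rose (36.1%) and 7 fell (19.4%), with a median log2 fold change of 0.04. Among the 13 ZSCAN genes tested 2 fell, among the 6 ZKSCAN genes tested 3 fell, and in neither group did any rise; the 19 genes together had a median of -0.09. For these 19 the count of rises was also 0 with edgeR's quasi-likelihood test and at an unadjusted limma p under 0.05. The difference between the ZBTB and the other genes was not tested.

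**Figure D1:**
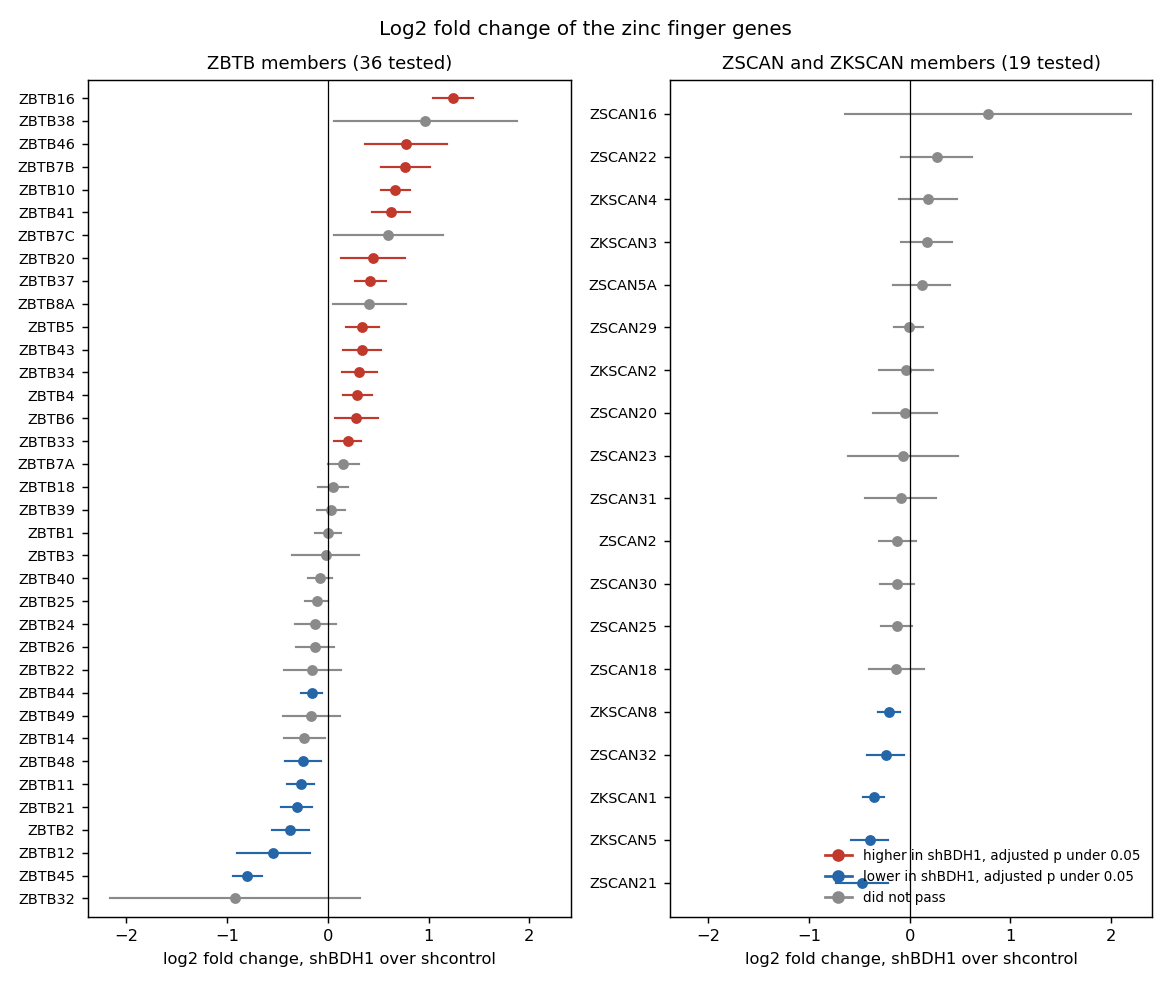
Log2 fold change of shBDH1 over shcontrol (x axis) with its 95% confidence interval for the 55 genes tested, ZBTB genes in the left panel and ZSCAN and ZKSCAN genes in the right; red marks genes that rose, blue genes that fell and grey genes that did not pass. The red points, 13 in all, stand in the ZBTB panel, while blue points stand in both.

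The other 4 genes were too low to test. ZBTB47 had 1.01 scaled reads in 1 shBDH1 library and 0 in the other 3 libraries. ZSCAN10 was at 0 in both shBDH1 libraries, against 6.16 and 1.02 in shcontrol libraries. ZSCAN12 had 8.85 and 9.05 in shBDH1 and 2.05 and 7.15 in shcontrol libraries, and ZKSCAN7 had 5.9 and 4.02 in shBDH1 and 1.03 and 6.13 in shcontrol libraries. At these depths no difference was detectable. Of the 59 genes, 21 had a mean of at least 1000 scaled reads, 31 a mean between 100 and 1000 and 7 a mean under 100.

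By mean level per kilobase of exon, the gene at the top differed between the groups. ZBTB45 was the most abundant of the family in shcontrol libraries, with a mean of 665 scaled reads per kilobase, and had 382 in shBDH1 libraries. ZBTB1, which lymphoid progenitors need, had 436 per kilobase in shBDH1 and 435 in shcontrol libraries and had the highest mean in shBDH1 libraries; ZBTB18, a repressor known from neural development, followed with a mean of 405 there (391.6 in shcontrol libraries) and was above ZBTB1 in shBDH1 replicate 1. ZKSCAN8, ZKSCAN1 and ZBTB44 came after ZBTB45 and ZBTB1 in shcontrol libraries with 434, 426 and 412 per kilobase, and had 376, 333 and 369 in shBDH1 libraries. The order among these genes was not tested. Before length was taken into account, ZBTB44, ZKSCAN1 and ZBTB25 had the highest mean values. ZBTB25, a repressor of NFAT-dependent transcription in T cells, had 3119.6 and 2957 scaled reads in shBDH1 and 3183 and 3373 in shcontrol libraries, a log2 difference of -0.11 that did not pass.

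Among 8 ZBTB regulators of lymphoid cells, 3 rose and none fell by limma, by edgeR or at an unadjusted p under 0.05. Over the protein-coding genes tested, 24.2% rose and 24.7% fell. Without overlap between the groups, 4 of the 8 were higher and 3 lower in shBDH1, against 34.1% and 34.9% of all genes tested. Of the 3 rises, that of ZBTB16 was the clearest. ZBTB16 had 1068 and 1098 scaled reads in shBDH1 libraries, against 455 and 458 in shcontrol libraries. Both shBDH1 libraries were above both shcontrol libraries, and the replicates of each group lay close together. The ratio of means was 2.37, with a log2 fold change of 1.25 ± 0.0982 and a limma adjusted p of 2.25e-11.

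ZBTB7B, the CD4 lineage factor, had 772 and 730.1 scaled reads in shBDH1 libraries, against 501 and 386 in shcontrol libraries. The groups did not overlap, although the shcontrol libraries lay further apart than the shBDH1 libraries. The log2 fold change was 0.77 ± 0.119 (limma adjusted p = 5.44e-06). ZBTB20, a repressor known from liver and from plasma cells, had 329 and 312 in shBDH1 libraries and 219 and 251 in shcontrol libraries, and rose by 0.45 ± 0.157 on the log2 scale. Its call did not hold without shBDH1 replicate 1, without shBDH1 replicate 2 or without shcontrol replicate 1, where the adjusted p reached 0.159. The other 5 regulators did not pass. ZBTB7A (LRF), which represses foetal globin genes, had 1533 and 1379 in shBDH1 and 1309 and 1303 in shcontrol libraries, without overlap (log2 0.15, 95% interval from -0.00 to 0.31). ZBTB1 had a log2 difference of 0.00 with an interval from -0.13 to 0.13, and ZBTB24, mutated in an immunodeficiency with unstable centromeres, one of -0.12 with an interval from -0.33 to 0.08. ZBTB32, a repressor of cytokine genes in T cells, was scarce, at 16.7 and 10.1 in shBDH1 and 27.7 and 23.5 in shcontrol libraries.

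The genes that ZBTB7B is tied to in thymocytes went both ways: of 8, 5 rose and 2 fell, with a median log2 fold change of 0.27. CD4 had 76.7 and 101 scaled reads in shBDH1 libraries, against 189 and 193 in shcontrol libraries, and fell by 1.11 ± 0.232 on the log2 scale (limma adjusted p = 0.000272) while ZBTB7B was higher. CD8B rose by 1.09 ± 0.327 and RUNX3, which drives the CD8 lineage, by 0.39 ± 0.0936, whereas CD8A, at 279 and 274 in shBDH1 and 311 and 359 in shcontrol libraries, did not pass. These 4 were named after their values were seen. GATA3, which acts upstream of ZBTB7B, had 4493 and 4293 in shBDH1 libraries, against 2973 and 2962 in shcontrol libraries (log2 0.57 ± 0.0521). RUNX1 (0.29) and TOX (0.25) also rose, and MYB, which acts with GATA3 early in the CD4 lineage, fell by 0.40 on the log2 scale.

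Each of 3 genes for proteins that bind methylated DNA was higher in both shBDH1 libraries than in either shcontrol library, and 2 of them rose. Over all genes tested, 34.1% were higher without overlap and 20.3% rose. The 3 genes were not tested as a set. ZBTB4 had 1715 and 1739 scaled reads in shBDH1 and 1412 and 1404 in shcontrol libraries (log2 0.29 ± 0.0697, limma adjusted p = 0.00106). ZBTB33 (Kaiso) had 2162 and 1949 in shBDH1 and 1813 and 1772 in shcontrol libraries (0.20 ± 0.0675), a call that did not hold without shBDH1 replicate 1 or without shcontrol replicate 2, where the adjusted p reached 0.243. ZBTB38 had 61.9 and 63.4 in shBDH1 libraries and 56.5 and 17.4 in shcontrol libraries; its shcontrol libraries lay far apart, and it did not pass (adjusted p = 0.0833).

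The telomere factors went in opposite directions. ZBTB10, which binds a variant telomeric repeat, had 1983 and 1919.7 scaled reads in shBDH1 libraries and 1232 and 1221 in shcontrol libraries. The libraries of each group were nearly equal and the gap between groups wide, with a log2 fold change of 0.67 ± 0.0701 (limma adjusted p = 6.74e-09). ZBTB48 (TZAP), which trims long telomeres, had 895 and 819.6 in shBDH1 and 1051 and 982 in shcontrol libraries and fell by 0.25 ± 0.0889 on the log2 scale. That fall did not hold without shBDH1 replicate 2 or without shcontrol replicate 1, where the adjusted p reached 0.191. ZSCAN4, on the same list, was not analysed here.

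Of 5 members tied to CDKN1A (p21) or the p53 pathway, 2 rose, 1 fell and 2 did not pass. The shares over all protein-coding genes tested were 24.2% for rises and 24.7% for falls. ZBTB5, a repressor of CDKN1A, had 1351 and 1500.4 scaled reads in shBDH1 and 1164 and 1083 in shcontrol libraries (log2 0.34 ± 0.0797). ZBTB2, likewise a repressor of CDKN1A, had 767 and 842 in shBDH1 and 1053 and 1027 in shcontrol libraries, lower in both shBDH1 libraries (log2 -0.37 ± 0.0891, limma adjusted p = 0.00117). ZBTB49, an activator of CDKN1A, had overlapping values of 335 and 432 in shBDH1 and 447 and 407 in shcontrol libraries. CDKN1A had 293 and 220.2 in shBDH1 libraries, against 53.4 and 34.7 in shcontrol libraries, a log2 fold change of 2.53 ± 0.27. Of the 6 genes found on the list tied to ZBTB1, ZBTB24, ZBTB2, ZBTB5, ZBTB49 or ZBTB7A, 3 rose and 3 fell. DNMT3B, a DNA methyltransferase that is mutated in the same syndrome as ZBTB24, had 1762 and 1706 in shBDH1 and 900.5 and 875 in shcontrol libraries (log2 0.97 ± 0.0768). CDCA7, a target of ZBTB24, fell by 0.34 on the log2 scale, and ATF4, the amino acid stress factor that ZBTB1 is known to activate in T-ALL cells, fell by 0.28.

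Outside these role lists, 6 further ZBTB genes rose. ZBTB46, a marker of classical dendritic cells, had 258 and 205 scaled reads in shBDH1 libraries and 139.6 and 129 in shcontrol libraries (log2 0.78 ± 0.199, limma adjusted p = 0.0023). Its exons share 471 bases with the opposite-strand transcript AL121845.1, which also rose (2.04), and the strand setting of the count is not given in the sources used here, so reads over those bases cannot be told apart; AL121845.1 had 58 and 34.2 scaled reads in all in shBDH1 and 12.3 and 8.18 in shcontrol libraries. Of the 59 genes, 21 share exon bases with another gene of the table, 9 of them among the 25 called. Without shBDH1 replicate 1 the adjusted p of ZBTB46 was 0.0787. ZBTB41 had 1164 and 1005 in shBDH1 and 717 and 684 in shcontrol libraries (0.63 ± 0.0939), and ZBTB37 had 1795 and 1743 in shBDH1 and 1422 and 1227 in shcontrol libraries (0.42 ± 0.0759). Neither gene's groups overlapped. ZBTB43, with 1004 and 938 in shBDH1 and 756 and 778 in shcontrol libraries, rose by 0.34. ZBTB34, with 1107 and 1207 in shBDH1 and 961 and 898 in shcontrol libraries, rose by 0.31, and its adjusted p was 0.065 without shBDH1 replicate 2. ZBTB6 rose by 0.28, a call lost without shBDH1 replicate 2, without shcontrol replicate 1 or without shcontrol replicate 2, where the adjusted p reached 0.292.

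**Figure D2:**
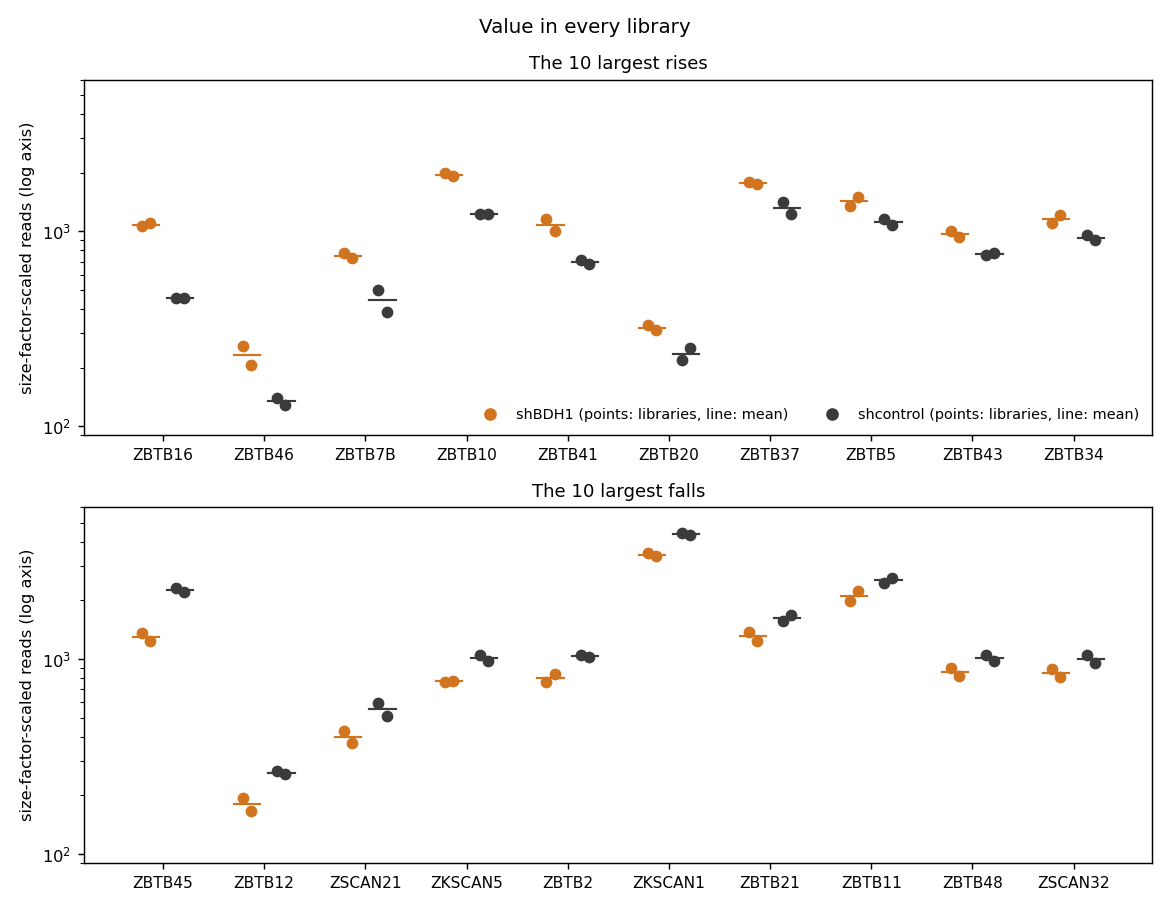
Scaled reads (y axis, log scale) in every library for the 10 genes with the largest rises (top) and the 10 with the largest falls (bottom); points are libraries, short lines group means, with shBDH1 left of shcontrol for each gene. The 20 genes were taken only from called genes whose groups did not overlap, so the separation of the points follows from that choice.

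ZBTB45 fell furthest of the genes that passed. It had 1367 and 1244 scaled reads in shBDH1 libraries, against 2323 and 2221 in shcontrol libraries. Its mean was 42.5% lower, with a log2 fold change of -0.80 ± 0.07 and a limma adjusted p of 1.92e-10. ZBTB12 had 193 and 167 in shBDH1 and 266 and 258 in shcontrol libraries (-0.54 ± 0.176). It shares 141 exon bases with the opposite-strand complement gene C2, which fell by 0.72, and its call did not hold without shBDH1 replicate 2 or without shcontrol replicate 1, where the adjusted p reached 0.11. ZBTB21, with 1383 and 1241 in shBDH1 and 1572 and 1674 in shcontrol libraries, fell by 0.31, and ZBTB11, with 1988 and 2244 in shBDH1 and 2465 and 2621 in shcontrol libraries, by 0.27. The groups of neither gene overlapped, and the adjusted p of ZBTB11 was 0.0523 without shBDH1 replicate 1. ZBTB44, with 4043 and 4087 in shBDH1 and 4444 and 4648 in shcontrol libraries, fell by 0.16, the smallest fall that passed, and its adjusted p was 0.154 without shcontrol replicate 2.

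The ZSCAN and ZKSCAN genes that fell were ZSCAN21, ZKSCAN5, ZKSCAN1, ZSCAN32 and ZKSCAN8. ZKSCAN1, the host gene of an abundant circular RNA, had 3491 and 3374 scaled reads in shBDH1 and 4445 and 4346 in shcontrol libraries (log2 -0.36 ± 0.0507, limma adjusted p = 1.42e-06). ZKSCAN5 had 764 and 772 in shBDH1 and 1048 and 976 in shcontrol libraries (-0.40 ± 0.0896). ZSCAN21 had 426 and 370.1 in shBDH1 and 599 and 510.0 in shcontrol libraries (-0.48 ± 0.126). For all 3, both shBDH1 libraries were below both shcontrol libraries. ZSCAN21 shares 880 exon bases with the opposite-strand gene ZNF3, which fell by 0.38; its adjusted p reached 0.0698 without shBDH1 replicate 2 or without shcontrol replicate 1. ZSCAN32 fell by 0.24, a call that did not hold without the same libraries, where the adjusted p reached 0.275. ZKSCAN8 fell by 0.21, with an adjusted p of 0.0575 without shcontrol replicate 1. ZKSCAN3, a repressor of autophagy and lysosome genes, had 500.3 and 456 in shBDH1 and 449.7 and 401 in shcontrol libraries and did not pass (0.17, 95% interval from -0.09 to 0.42). Of 9 autophagy and lysosome genes tied to it, 2 rose (LAMP2 by 0.60 and LAMP1 by 0.25), 1 fell (ATP6V0D1, by 0.27) and 6 did not pass.

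Genes of the same 2 domain classes under other names gave their own counts. Of 8 BTB zinc finger genes with other names, 2 rose and 3 fell. HIC2 had 701 and 771 scaled reads in shBDH1 and 369.6 and 437 in shcontrol libraries (log2 0.87 ± 0.117), and BCL6, the germinal centre repressor, 291 and 396 in shBDH1 and 242 and 226 in shcontrol libraries (0.54 ± 0.164). MYNN (-0.44) and GZF1 (-0.29) were among those that fell. Of 25 SCAN genes with other names, 1 rose and 11 fell, with a median of -0.18. ZNF202, a repressor of lipid metabolism genes, had 624 and 684 in shBDH1 and 1087 and 928 in shcontrol libraries (-0.62 ± 0.0985), and MZF1 (-0.49), ZNF263 (-0.41) and ZNF397 (-0.34) also fell. Among the 373 tested protein-coding genes named ZNF with a number, 39 rose (10.5%) and 83 fell (22.3%), with a median of -0.06. These sets were not tested against one another, and 22 of the 25 SCAN genes also carry ZNF names.

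**Figure D3:**
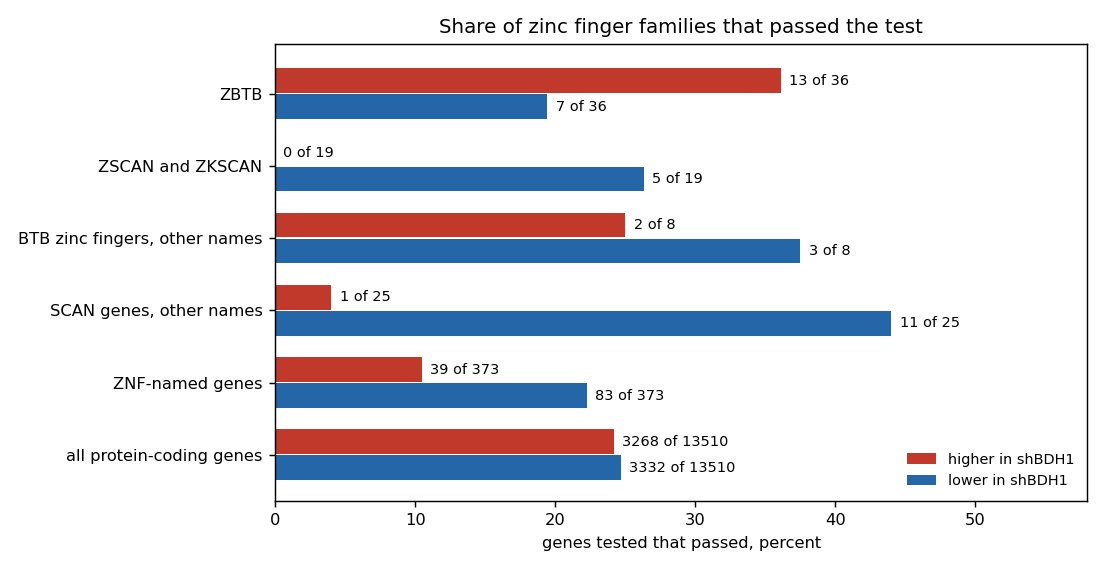
Percent of genes tested (x axis) that were higher (red) or lower (blue) in shBDH1 with an adjusted p under 0.05, with counts beside the bars, for zinc finger sets and for all protein-coding genes. ZBTB genes show 13 of 36 higher, against 0 of 19 for ZSCAN and ZKSCAN genes and 1 of 25 for SCAN genes with other names. BTB zinc fingers with other names show 2 of 8 higher and 3 of 8 lower, and ZNF-named genes 39 of 373 higher. Of all protein-coding genes tested, 24.2% were higher.

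Partners of the 2 classes also moved in both directions. Of 13 corepressor genes of BTB proteins, 5 rose, 3 fell and 5 did not pass. TBL1XR1, a subunit of the complex that NCOR1 forms with HDAC3, had 8794 and 8529.7 scaled reads in shBDH1 libraries, against 6148 and 6107 in shcontrol libraries. The groups were far apart relative to their replicates, with a log2 fold change of 0.50 ± 0.0418 and a limma adjusted p of 7.99e-11. NCOR1 itself had 9512 and 9458 in shBDH1 and 10218 and 9794 in shcontrol libraries and did not pass (-0.08, 95% interval from -0.16 to 0.00); it was named after its values were seen. CUL3 had 3215 and 2862 in shBDH1 and 2025 and 2129 in shcontrol libraries and rose by 0.55. BCOR rose by 0.40, and CTBP2, which encodes a corepressor of the CtBP family, by 0.34. Of 11 corepressor genes of KRAB proteins, 4 rose, 2 fell and 5 did not pass. TRIM28 had overlapping values, 23914 and 19565.5 in shBDH1 and 21439 and 21055 in shcontrol libraries, and did not pass (0.03). CHD4, among the 4 that rose, had few scaled reads, at 71.7 and 66.4 in shBDH1 and 28.75 and 41.9 in shcontrol libraries. Whether the count caught all reads of CHD4 was not tested. TRIM28 and CHD4 were named after their values were seen. SETDB1 had 1521 and 1591 in shBDH1 and 2073 and 1981 in shcontrol libraries (-0.38 ± 0.0673), and PPHLN1, a subunit of the HUSH silencing complex, fell by 0.30. CBX3 (0.20) and CBX1 (0.22), which encode heterochromatin proteins, rose.

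**Figure D4:**
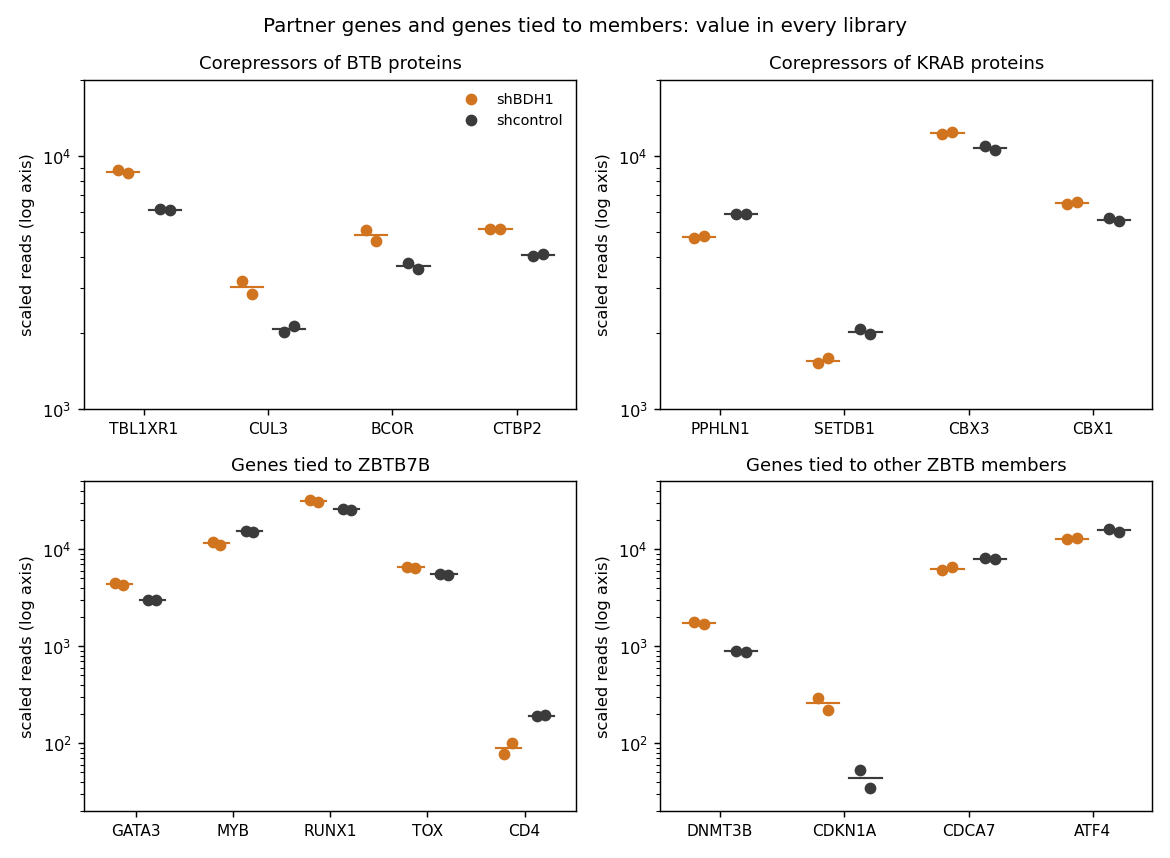
Scaled reads (y axis, log scale) in every library for corepressor genes and for genes tied to ZBTB members; points are libraries and short lines group means, with shBDH1 left of shcontrol. CD4 and SETDB1 lie lower in both shBDH1 libraries, and TBL1XR1, CDKN1A and DNMT3B lie higher.

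Several of the genes lie next to one another. On chromosome 7, ZKSCAN5, ZSCAN25, ZKSCAN1 and ZSCAN21 lie within 0.56 Mb (hg38, positions from GENCODE 29). All 4 were lower in both shBDH1 libraries than in either shcontrol library, 3 fell, and ZSCAN25, with 1292 and 1377 in shBDH1 and 1463 and 1458 in shcontrol libraries, did not pass. Over all genes tested, 34.9% were lower without overlap and 20.8% fell. The median of the 4 was -0.38. The 9 other genes tested that lie wholly inside the interval had a median of -0.29; by limma none of these passed, 1 had an unadjusted p under 0.05, and edgeR called 0. ZNF3, which overlaps the end of the interval at ZSCAN21 and is not among the 9, fell by 0.38. On chromosome 9, 4 of 5 genes rose, against 24.2% of the protein-coding genes tested. These 5 do not form a single run, and ZBTB5 lies far from the others. ZBTB43 and ZBTB34 lie 22454 bases apart on the same strand and rose by similar amounts. ZBTB6 rose, whereas ZBTB26, 2235 bases away, had a log2 difference of -0.13 (95% interval from -0.32 to 0.06). In the run of 7 genes within 0.319 Mb on chromosome 6, 6 were tested and ZKSCAN8 was the 1 called, with a median of 0.05. On chromosome 19, ZBTB45 stands within 0.455 Mb of ZSCAN18 and ZSCAN22, neither of which passed; of 24 other genes tested between them, 9 fell and none rose (edgeR called 8 of the 24; 10 had an unadjusted p under 0.05). ZBTB1 and ZBTB25 lie on opposite strands and share 507 exon bases, so reads over those bases cannot be told apart; the rest of their exons is not shared between them.

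Promoter windows, from 250 bases before to 50 after a RefSeq start (GRCh38.p14), were found for 52 of the 59 genes. The windows were searched on both strands for CCGGAAG, recognised by ETS-family factors, for CACGTG, the E-box that MYC binds with MAX, and for CTCGCGAG, the core of a promoter palindrome that ZBTB33 is known to occupy; a match to 1 of them cannot overlap a match to another. CCGGAAG was in a window of 25 of the 52 genes (48.1%), against 20.9% of 10449 protein-coding genes tested and 12.2% of the 27305 genes of the RefSeq table. The 52 genes had 1.88 windows each and the tested genes 1.48, so part of the search space differed. By outcome, 5 of the 9 genes that rose and had a window, 6 of the 12 that fell and 14 of the 31 others held it. ZBTB16, the largest rise, and ZBTB10, ZBTB41 and ZBTB6 rose but had no window, while all 12 genes that fell had one. CACGTG was in 10 of the 52 (19.2%), against 12.3% of tested genes and 8.77% of the table, and CTCGCGAG in 2 (3.85%), against 2.31% and 1.23%. A match describes letters only. The windows below belong to the largest fall that passed (ZBTB45) and to ZKSCAN1 and ZKSCAN5 of the chromosome 7 run. The others belong to the chromosome 9 neighbours (ZBTB34 and ZBTB43) and to ZBTB37, which holds both the E-box and the ETS motif. Each is the window of its gene with most matches, written 5′ to 3′ along the gene's strand with matches in capitals.
ZBTB45: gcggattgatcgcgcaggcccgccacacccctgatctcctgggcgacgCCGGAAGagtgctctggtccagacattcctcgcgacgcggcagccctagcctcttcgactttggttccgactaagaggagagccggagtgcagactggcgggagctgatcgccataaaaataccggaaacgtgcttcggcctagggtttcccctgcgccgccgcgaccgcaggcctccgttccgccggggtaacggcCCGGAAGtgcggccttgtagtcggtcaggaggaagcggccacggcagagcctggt
ZKSCAN1: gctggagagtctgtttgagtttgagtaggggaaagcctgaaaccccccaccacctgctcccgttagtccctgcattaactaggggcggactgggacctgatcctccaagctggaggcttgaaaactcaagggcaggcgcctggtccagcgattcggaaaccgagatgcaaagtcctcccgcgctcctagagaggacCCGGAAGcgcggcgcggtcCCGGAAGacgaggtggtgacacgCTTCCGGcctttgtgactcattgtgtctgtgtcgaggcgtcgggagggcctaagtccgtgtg
ZKSCAN5: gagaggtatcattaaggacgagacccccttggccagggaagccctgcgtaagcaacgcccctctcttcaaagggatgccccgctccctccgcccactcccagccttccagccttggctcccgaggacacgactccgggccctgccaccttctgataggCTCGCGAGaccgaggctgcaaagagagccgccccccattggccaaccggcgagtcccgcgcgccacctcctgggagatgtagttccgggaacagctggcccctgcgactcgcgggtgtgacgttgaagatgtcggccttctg
ZBTB34: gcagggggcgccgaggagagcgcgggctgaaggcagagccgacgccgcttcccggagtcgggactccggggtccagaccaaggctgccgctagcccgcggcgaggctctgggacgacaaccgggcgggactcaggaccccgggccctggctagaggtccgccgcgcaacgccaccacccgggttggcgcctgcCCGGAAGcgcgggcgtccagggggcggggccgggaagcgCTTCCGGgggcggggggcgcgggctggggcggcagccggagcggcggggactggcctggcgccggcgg
ZBTB43: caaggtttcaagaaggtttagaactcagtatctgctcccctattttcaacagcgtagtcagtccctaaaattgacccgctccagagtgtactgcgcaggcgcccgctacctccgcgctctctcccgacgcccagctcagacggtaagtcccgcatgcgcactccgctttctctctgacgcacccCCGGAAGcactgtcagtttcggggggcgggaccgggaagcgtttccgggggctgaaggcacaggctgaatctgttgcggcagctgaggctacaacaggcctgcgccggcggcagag
ZBTB37: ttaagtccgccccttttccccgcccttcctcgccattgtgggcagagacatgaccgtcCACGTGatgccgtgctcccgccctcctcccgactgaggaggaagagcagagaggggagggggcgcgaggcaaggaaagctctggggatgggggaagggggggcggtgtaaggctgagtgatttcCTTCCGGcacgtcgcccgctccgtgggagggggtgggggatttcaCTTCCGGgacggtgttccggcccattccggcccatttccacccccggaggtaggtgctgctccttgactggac

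The ZBTB45 window (chr19:58519761-58520060, minus strand) has CCGGAAG beginning at base -202 and at base -5 from the start. ZKSCAN1 (chr7:100015346-100015645, plus strand) has 3 matches within the last 54 bases before its start, 2 in the orientation shown and 1 as the reverse complement. ZKSCAN5 (chr7:99504412-99504711, plus strand) lacks CCGGAAG and has CTCGCGAG at base -92. Whether ZBTB33 binds there or acts on ZKSCAN5 was not tested. ZBTB34 (chr9:126860389-126860688, plus strand) has 2 CCGGAAG matches, at bases -57 and -18, and ZBTB43 (chr9:126804790-126805089, plus strand) 1, at base -66. ZBTB37 (chr1:173868130-173868429, plus strand) has the E-box at base -192 and CCGGAAG, as the reverse complement, at bases -68 and -23. Genes of both directions carried the ETS motif.

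Among the alternatives run, the count of calls differed most without the intensity trend. Without that term, which lets the variance follow the expression level, 3 genes rose (ZBTB16, ZBTB10 and ZBTB41) and 1 fell (ZBTB45). With upper-quartile scaling, which moved the median of all genes to 0.04, 15 genes rose and 9 fell, so 62.5% of the calls were rises, against 52% with the deposited scaling. Leaving out each library in turn, 13 of the 25 calls held in all 4 fits: the rises of ZBTB16, ZBTB7B, ZBTB10, ZBTB41, ZBTB37, ZBTB5, ZBTB43 and ZBTB4 and the falls of ZBTB45, ZKSCAN5, ZBTB2, ZKSCAN1 and ZBTB21.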

How the data were processed

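RNA was measured in 2 shBDH1 and 2 shcontrol libraries of Jurkat cells. The deposited values are a normalized signal: from the values, the authors divided whole gene read counts by 1 size factor per library, since multiplying back gave whole numbers (within 0.01 reads) for 100% of values. The submitters' processing notes name hg38, HISAT2 2.2.1 and FastQC 0.11.9; the read counter, annotation and strand setting: not given in the sources used here. Totals were 29453383 and 28777374 reads for shBDH1 and 28681511 and 28797402 for shcontrol libraries.

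The deposited signal, as log2(value + 1), was tested with limma 3.58.1 (R 4.3.3) with an intensity trend, for genes with a mean of at least 10, with Benjamini-Hochberg adjustment over all 19301 such genes. On recovered reads edgeR 4.0.16 called 3976 rises and 3917 falls. DESeq2 1.42.0, limma-voom, other scalings, pseudocounts, filters and leaving out libraries were alternatives. On simulated data with the depth of these libraries, limma found 44 of 50 genes changed 1.5-fold and 21 of 50 changed 1.25-fold, among 19329 genes. It also called 8 unchanged genes. The changed genes all had a mean of at least 100, and the dispersion was fixed, not estimated from these data. Far fewer genes were changed there than were called here, so these rates do not give the power of the main test.

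Members and lists were chosen with earlier results of these data known. Named were all members on role lists, the 3 highest members and up to 4 genes of each other list by smallest p. Named too were the 10 largest rises and 10 largest falls that passed with groups that did not overlap. Exon lengths, positions and overlaps came from GENCODE 29, and promoters from RefSeq. A gene of the corepressor list is not reported here.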

Additional observations from a re-analysis of the deposited data

How the results depend on the processing

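With 2 libraries per group, genes under 100 scaled reads had a median SE of 0.495 on the log2 scale, so modest changes of ZBTB32, ZBTB38 or ZSCAN16 were not detectable. Without the intensity trend 1598 genes rose and 1246 fell, and among the zinc finger genes 3 rose and 1 fell; the cause was not tested. The median log2 fold change of the 55 genes, -0.04, was -0.0098 with upper-quartile scaling and ranged from -0.051 to 0.025 when 1 library was left out, while 10 to 12 genes rose and 8 to 11 fell. DESeq2 called 11 rises and 10 falls, and testing without a filter also 11 and 10. edgeR with its own scaling gave the same 25 calls as limma. Single-gene values were followed for the members chosen for naming, which include genes not called and leave out the called ZBTB6 and ZKSCAN8. Of these values, 428 stayed on the same side of the threshold, 46 lost their call and 4 gained one. Of all 25 called genes, 0 changed sign, while values near 0 of genes not called, such as ZBTB1 and ZBTB49, did. The labels number the libraries 1 and 2 in both groups without saying that the numbers pair them, and deviations of same-numbered libraries had a correlation of 0.0013 over all genes and 0.122 over the 55 genes. In a fit with the replicate block, as if paired, 4108 genes rose and 4217 fell, with 14 rises and 12 falls among the zinc finger genes; the added call was ZBTB38 with limma and ZBTB8A with edgeR.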
